A study of Homo sapiens with 12 samples.

Results

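The mitochondrial respiratory chain and ATP synthase are built from proteins of 2 genomes, and the transcripts of both were followed in SJSA-1 cells after RNA interference against RUNX2. The protein-coding genes of complexes I to V were taken from the gene count table by symbol: the numbered NDUFA, NDUFB, NDUFC, NDUFS and NDUFV genes and NDUFAB1, SDHA to SDHD, the UQCR genes and CYC1, the COX4 to COX8 subunits, the ATP5F1, ATP5M and ATP5P genes, and the mitochondrial MT-ND, MT-CO, MT-CYB and MT-ATP genes. This gave 100 genes out of the 19831 protein-coding rows among 59248 rows, of which 87 lie in the nucleus and 13 in mitochondrial DNA. By complex, 44 belonged to complex I, 4 to complex II, 11 to complex III, 21 to complex IV and 20 to complex V. NDUFA4, first assigned to complex I, was counted with complex IV, as was the supercomplex factor COX7A2L.

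SJSA-1 is an established human osteosarcoma line. The tested cells (sh1, n = 6 libraries) stably expressed RUNX2 shRNA-1, and the control cells (shNC, n = 6 libraries) a scramble shRNA. Both constructs were delivered by a lentivirus that also carries EGFP and puromycin resistance, and both cell populations were selected with puromycin, so all libraries share infection, reporter and drug selection. A single RUNX2 shRNA stands against a single control, nothing in the sources states that the 6 libraries of a group came from separate cultures or infections, and the p-values therefore measure a spread between libraries that may be technical.

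In oxidative phosphorylation, complexes I and II pass electrons from NADH and succinate to coenzyme Q, complex III passes them to cytochrome c and complex IV to oxygen, while the proton gradient set up by complexes I, III and IV drives ATP synthase, complex V. Mitochondrial DNA encodes core hydrophobic subunits of complexes I, III, IV and V, transcribed as long polycistronic RNAs. Complex II is encoded by nuclear genes alone, and every other complex needs products of both genomes in balance.

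Promoter sequence is shown for the 4 members in which every sh1 library lay below every shNC library (below), because respiratory genes are known for shared promoter motifs of the ETS family (to which GABPA belongs) and of NRF1. RefSeq windows (GRCh38.p14) were found for 64 of the 79 tested nuclear members, and the 250 bases before the start were searched on both strands for CCGGAAG (ETS), GCGCATGCG (NRF1), AAGATGGCG (YY1) and TGTGGT (RUNX). None of the 4 motifs contains another, but the NRF1 letters can overlap themselves on opposite strands. Capitals mark matches. The SDHD window lies at chr11:112086623-112086872 (plus strand), the SDHB window at chr1:17054033-17054282 (minus strand), the NDUFA6 window at chr22:42090773-42091022 (minus strand) and the NDUFS3 window at chr11:47578824-47579073 (plus strand). The NDUFS3 window lies inside the gene span given below (47565336 to 47584562) and not before its first base. Where a gene had more than 1 window, the window with the lowest coordinate is shown.
SDHD promoter: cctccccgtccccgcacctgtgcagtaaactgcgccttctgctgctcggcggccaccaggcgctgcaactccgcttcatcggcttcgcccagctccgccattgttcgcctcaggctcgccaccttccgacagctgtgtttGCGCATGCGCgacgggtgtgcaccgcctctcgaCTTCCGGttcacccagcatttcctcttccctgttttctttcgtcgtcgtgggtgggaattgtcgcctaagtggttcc
SDHB promoter: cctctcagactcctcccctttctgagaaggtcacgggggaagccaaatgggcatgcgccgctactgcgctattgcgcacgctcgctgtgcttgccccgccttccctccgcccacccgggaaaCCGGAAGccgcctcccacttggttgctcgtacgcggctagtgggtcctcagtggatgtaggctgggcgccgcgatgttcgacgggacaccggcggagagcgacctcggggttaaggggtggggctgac
NDUFA6 promoter: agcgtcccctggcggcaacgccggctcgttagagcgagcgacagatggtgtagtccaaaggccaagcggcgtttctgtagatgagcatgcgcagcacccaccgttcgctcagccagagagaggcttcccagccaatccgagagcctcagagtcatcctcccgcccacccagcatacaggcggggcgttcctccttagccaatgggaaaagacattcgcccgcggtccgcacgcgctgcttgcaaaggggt
NDUFS3 promoter: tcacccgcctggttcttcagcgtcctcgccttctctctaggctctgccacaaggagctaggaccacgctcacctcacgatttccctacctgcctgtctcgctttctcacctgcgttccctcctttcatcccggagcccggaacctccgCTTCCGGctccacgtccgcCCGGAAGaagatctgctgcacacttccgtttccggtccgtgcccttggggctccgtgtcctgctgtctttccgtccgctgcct

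SDHD carried 3 matches, with the NRF1 letters on both strands of the same stretch and the ETS letters on the minus strand. SDHB carried 1 ETS match, NDUFS3 2 ETS matches, 1 on each strand, and NDUFA6 none of the letters searched. Some genes have more than 1 window, and others none: the 77 windows of tested nuclear members come from 64 genes, and 20 windows come from 15 of the members that fell (below). The ETS letters were found in 19 of the 77 windows (24.7%) and 7 of the 20 windows, against 8.52% of all 35116 windows. The NRF1 letters were found in 10 windows of members (13%) and 4 windows of members that fell, against 1.64% of all windows. The YY1 letters were found in 2 windows of members (2.6%) and in 0 of members that fell, against 0.652% of all. For the RUNX letters the numbers were 12 windows of members (15.6%) and 3 of members that fell, from COX7A2L and UQCR10, against 11% of all windows. These are matches of letters and not shown to be binding sites.

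Total gene counts ranged from 11239638 to 16346022 in sh1 and from 15328312 to 19992974 in shNC. RUNX2 (ENSG00000124813, chromosome 6, 45328157 to 45664349, GRCh38) was present at a lowest, median and highest level of 21.6, 24.8 and 27.4 CPM (gene counts scaled to library size by the TMM method) in sh1, against 35.5, 37.7 and 46.2 CPM in shNC. The groups did not overlap, and RUNX2 in sh1 was at 62.0% of shNC (log2 fold change −0.69, SE 0.076, edgeR adjusted p = 4.6e-06, exact two-sided permutation p = 0.0022, the smallest that 6 against 6 libraries allow). Of the 11 osteoblast and SJSA-1 genes examined, 7 were tested: RUNX2 was lower, SPARC (log2 fold change 0.66), MDM2 (0.30) and COL1A1 (1.49, 16.3 CPM in sh1 and 5.83 CPM in shNC on average) were called higher in edgeR, CDK4, SPP1 and COL1A2 were not called, and SP7, ALPL, BGLAP and IBSP averaged at or near 0 CPM. Of 12 markers of other cell types, 9 did not pass the count filter, and KRT8, a keratin, was the single abundant one, at 343 ± 41.6 CPM in sh1 and 246 ± 22.4 CPM in shNC (SD, n = 6), called higher like the muscle myosin MYH7 (3.36, at 3.77 ± 4.73 CPM in sh1 and 0.387 ± 0.616 CPM in shNC). The markers other than KRT8 together summed to 4.65 to 14.8 CPM in sh1 and 2.48 to 5.76 CPM in shNC. The part of any of these in the results below was not tested. Fold changes are sh1 over shNC.

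Of the 92 members with enough counts to be tested, 20 fell in sh1 and 0 rose, at an adjusted p under 0.05 in edgeR's quasi-likelihood test over 16489 genes. All 20 were nuclear genes. They made up 25.3% of the 79 nuclear members tested, where 13.3% of all tested genes were called lower and 12.8% called higher. At an unadjusted p under 0.05, 46 nuclear members were lower and 1, SDHA, was higher, and DESeq2 also called 0 members higher. The median log2 fold change was −0.20 over nuclear members, −0.08 over the 13 mitochondrial members and −0.00 over all tested genes. A fitted decrease was found in 72 of the 79 nuclear members, against 50.7% of all genes. In 4 of the 92 tested members every sh1 library lay below every shNC library, namely NDUFA6, NDUFS3, SDHB and SDHD. That is a smaller share than the 6.08% of all tested genes with that property. Most decreases were small: the called members ranged from −0.17 to −0.71, and 1 of them, ATP5MK, fell by 1.5-fold or more. In bulk RNA, fewer cells of a kind and less RNA per cell cannot be told apart.

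**Figure D1:**
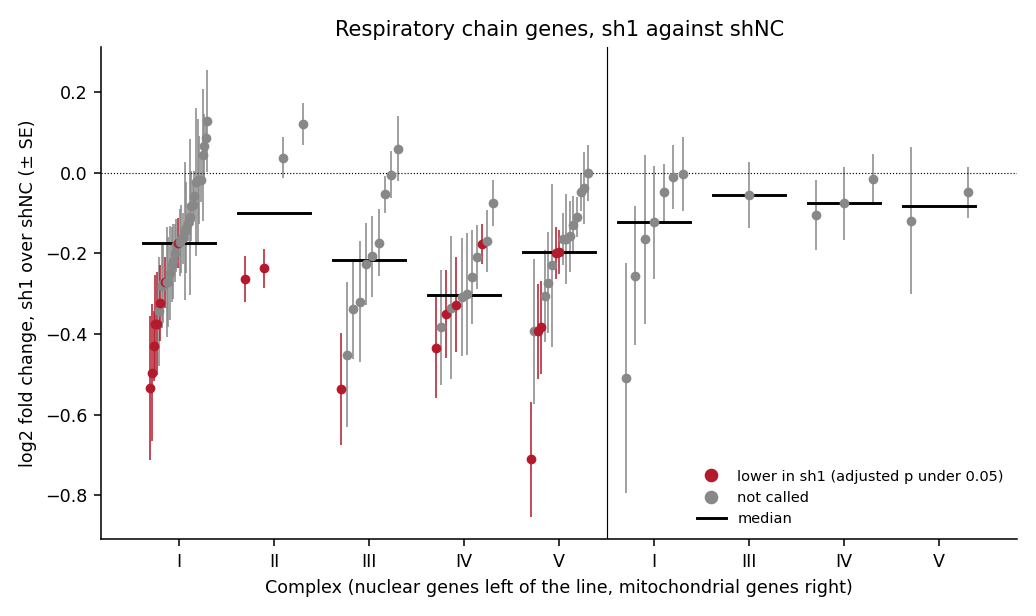
Log2 fold change (sh1 over shNC, ± SE, y axis) of the 92 tested members by complex (x axis), nuclear genes left and mitochondrial genes right of the line; red points were called lower, black bars are medians. The 20 called genes are all nuclear, the nuclear medians lie between −0.10 (complex II) and −0.30 (complex IV), and complex II holds both called decreases and fitted increases.

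These counts leaned on single libraries. The sh1 replicate 3 library was the lowest of all 12 in 57 of 79 nuclear and 13 of 13 mitochondrial members, and shNC replicate 1 was the highest in 56 and 13. Replicate 3 of sh1 was also the library with the fewest counts and the fewest genes with a count (27392, against 28612 to 28873 in the other sh1 libraries), and 1.23% of its counts fell on rows with no Ensembl identifier, against at most 0.531% in the other sh1 libraries. With all libraries thinned to its total, 22 members were lower (27.8% of the nuclear members tested, beside 12.8% of all genes). The count of lower members was 12 without sh1 replicate 3, 12 without sh1 replicate 6, 11 without shNC replicate 5 and 31 without shNC replicate 4. These were 15.2%, 15.2%, 13.9% and 39.2% of the nuclear members tested, beside 11.9%, 10.6%, 9.90% and 13.2% of all genes in the same fits. Without both sh1 replicate 3 and shNC replicate 1, a choice made after the data were seen and one that removes the lowest and the highest library, 9 nuclear members were lower. That was 11.4% of those tested, beside 11.5% of all genes in the same fit, and the nuclear median was −0.10. The share of nuclear members stood above the background in the full set and not in this fit. Leaving out libraries that are extreme for these same members shrinks their difference by itself, so no conclusion is drawn from the fall. The 9 are by definition the calls that this fit kept. Their decreases were smaller in it, such as −0.25 for NDUFA4 (−0.43 in the full set) and −0.32 for UQCR10 (−0.54), except in COX7A2L (−0.19, and −0.18 in the full set). The 9 were NDUFA6, NDUFC2, NDUFS3, SDHB, SDHD, UQCR10, COX7A2L, NDUFA4 and ATP5MK.

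**Figure D2:**
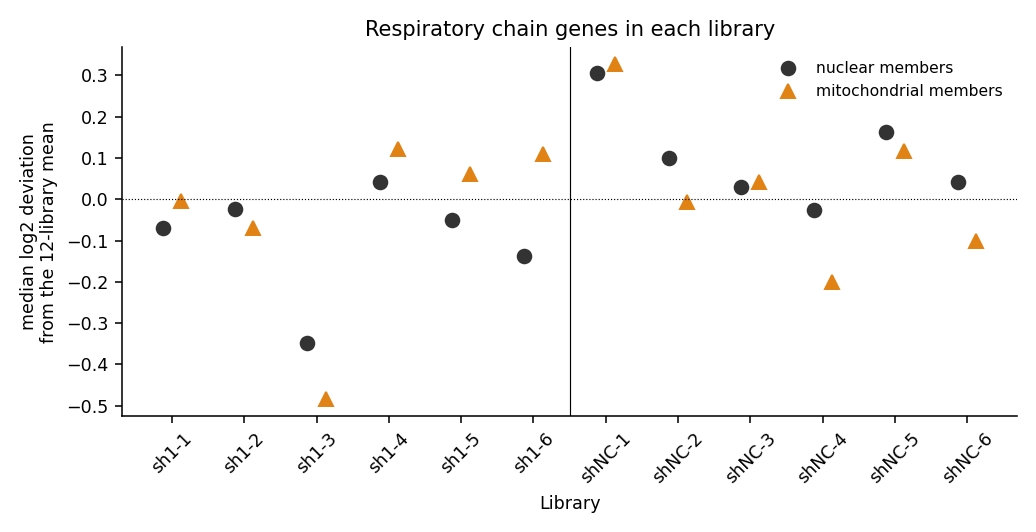
Median deviation of the members from their mean over 12 libraries (log2 scale, y axis) in each library (x axis), for nuclear members (circles) and mitochondrial members (triangles), sh1 left and shNC right. The sh1 replicate 3 library lies at −0.35 and −0.48 and shNC replicate 1 at 0.31 and 0.33, and the 10 other libraries lie between −0.20 and 0.16.

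Complex I oxidises NADH and is the largest of the complexes. Of its 36 tested nuclear members 8 fell (22.2%, beside 13.3% of all tested genes), with a median of −0.17 over the 36. NDUFA6, an accessory subunit (chromosome 22, 42085526 to 42090884), had a lowest, median and highest level of 14.6, 16.8 and 19.8 CPM in sh1, against 20.3, 22.9 and 26.3 CPM in shNC. The groups did not overlap, although 19.8 and 20.3 CPM nearly met, and the gene stood at 74.2% of its shNC level (log2 fold change −0.43, SE 0.086, edgeR adjusted p = 0.0013). NDUFS3, a core subunit of the arm that carries electrons to coenzyme Q (chromosome 11, 47565336 to 47584562), ranged from 28.5 to 34.7 CPM with a median of 31.2 in sh1, against 36.0 to 41.8 CPM with a median of 36.9 in shNC. It was at 82.8% (log2 fold change −0.27, SE 0.063, edgeR adjusted p = 0.0040), and sh1 replicate 3, at 32.5 CPM, was above the median of its group. NDUFS3 overlaps CELF1, itself called lower (−0.13, edgeR adjusted p = 0.028), and KBTBD4 (0.20, 0.26) on the opposite strand, and the library kit does not mark strand. The called members NDUFB3, ATP5MF and ATP5PB also overlap an opposite-strand gene, in each case one that was not called (HYCC2, CPSF4 and WDR77).

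The other complex I genes called lower were accessory subunits. NDUFC2 was at −0.32 (edgeR adjusted p = 0.016), NDUFS5 at −0.38 (0.030), NDUFA1 at −0.53 (0.034), NDUFB3 at −0.50 (0.038), NDUFS6 at −0.37 (0.039) and NDUFA5 at −0.17 (0.048). Their groups overlapped, and apart from NDUFC2, whose call was lost without shNC replicate 2 alone, these calls held in 3 to 7 of the 12 fits that left out a library. NDUFS5 had the highest FPKM (a level scaled for gene length and depth) of the nuclear members of the complex, at 112 ± 19.9 in sh1 and 144 ± 24.6 in shNC (SD, n = 6). By CPM, which is not scaled for length, NDUFS1 (150 in sh1, 163 in shNC) stood above NDUFS5 (61.3 and 79.7). Several members missed the threshold narrowly, such as NDUFA8 at −0.20 (edgeR adjusted p = 0.051) and the acyl carrier protein NDUFAB1 at −0.28 (0.051). The core subunits NDUFS1 and NDUFV1 were not called, at −0.12 (edgeR adjusted p = 0.054) and −0.16 (0.068).

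Complex II, succinate dehydrogenase, also works in the citric acid cycle, and its 4 genes split. SDHD, a membrane anchor subunit (chromosome 11, 112086824 to 112120016), had 86.8, 91.6 and 96.2 CPM as its lowest, median and highest level in sh1, against 98.5, 108 and 117 CPM in shNC. SDHB, the iron-sulfur subunit (chromosome 1, 17018664 to 17054032), had 68.9, 70.5 and 77.2 CPM in sh1, against 77.9, 85.2 and 95.2 CPM in shNC. For both genes the groups stood apart and sh1 replicate 3 was not the lowest library. SDHD was at 84.8% of shNC (log2 fold change −0.24, SE 0.049, edgeR adjusted p = 0.0017) and SDHB at 83.3% (−0.26, SE 0.056, adjusted p = 0.0021). SDHA, the flavoprotein that binds succinate, had 158, 172 and 188 CPM in sh1, against 150, 158 and 170 CPM in shNC. Its groups overlapped and it was not called (0.12, SE 0.052, edgeR adjusted p = 0.094), but it was called higher without sh1 replicate 3 (0.15, adjusted p = 0.035). SDHC, the other membrane anchor, was at 0.04 (SE 0.051, edgeR adjusted p = 0.63), with 103 to 114 CPM in sh1 and 98.0 to 118 CPM in shNC. Summed over the 4 genes, complex II transcripts averaged 444 ± 9.99 CPM in sh1 and 459 ± 18.5 CPM in shNC (SD, n = 6), with overlapping ranges.

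SDHD starts 26 bases from the oppositely oriented TIMM8B, a chaperone of the intermembrane space. TIMM8B was at −0.04 (SE 0.11, edgeR adjusted p = 0.80), so a decrease was called in SDHD and not in its neighbour, while the difference between them was not tested. NDUFS6 starts 41 bases from MRPL36, a protein of the mitochondrial ribosome, which fell by 0.42 on the log2 scale (SE 0.091, edgeR adjusted p = 0.0024), with 14.7 to 22.7 CPM in sh1 and 23.6 to 29.2 CPM in shNC. ATP5MK starts 134 bases from PDCD11 (−0.32, edgeR adjusted p = 0.00026) and NDUFS3 starts 233 bases from CELF1, both neighbours called lower. The neighbours of NDUFA1 (RNF113A), NDUFB3 (HYCC2), UQCR10 (ZMAT5) and ATP5PB (WDR77) were not called.

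**Figure D3:**
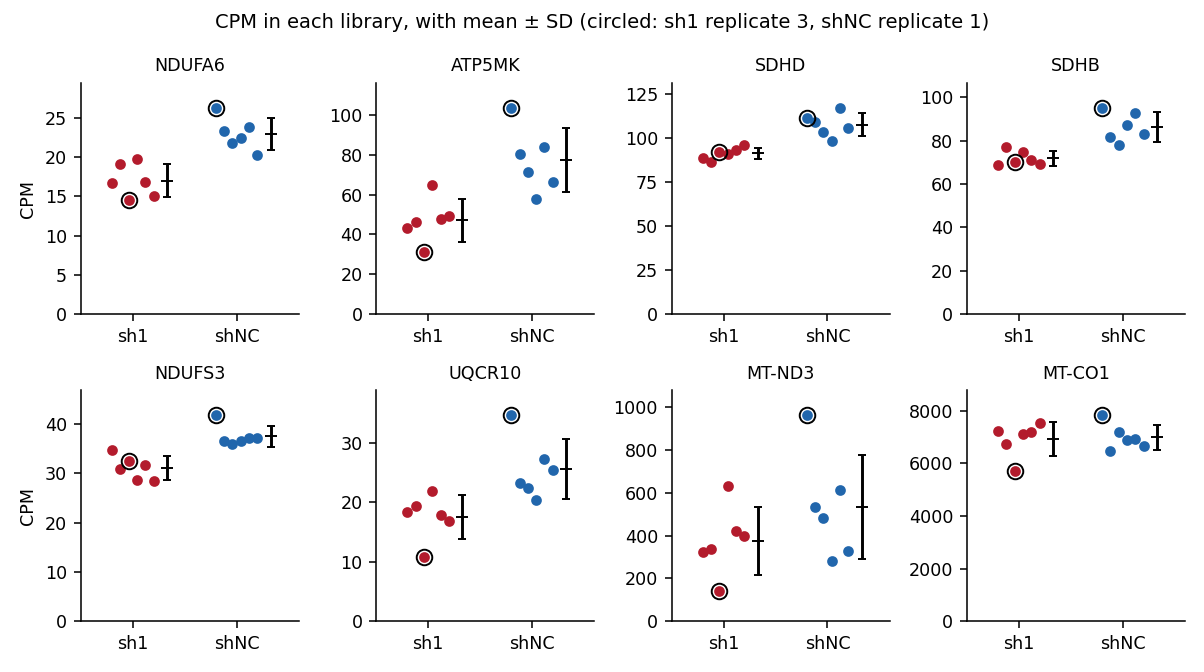
CPM (y axis, from 0) of 8 genes in each library of sh1 (red) and shNC (blue), with mean ± SD (n = 6); sh1 replicate 3 and shNC replicate 1 are circled. The groups do not overlap for NDUFA6, SDHD, SDHB and NDUFS3, whereas the 2 mitochondrial genes overlap widely and the circled libraries form their extremes.

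Complex III had 1 called decrease among 10 tested nuclear members (10%, below the 13.3% of all tested genes), with a median of −0.22. UQCR10, a small accessory subunit (chromosome 22, 29767369 to 29770413), had 10.8, 18.1 and 21.9 CPM in sh1, against 20.5, 24.3 and 34.7 CPM in shNC. The groups overlapped between 20.5 and 21.9 CPM, and the gene was at 68.9% (log2 fold change −0.54, SE 0.14, edgeR adjusted p = 0.0084). The most abundant nuclear member, the hinge protein UQCRH, measured 124 ± 20.1 FPKM in sh1 and 141 ± 15.0 FPKM in shNC (SD, n = 6), at a log2 fold change of −0.21 (edgeR adjusted p = 0.14). Its near-identical copy UQCRHL averaged 1.87 FPKM in sh1 and 2.56 FPKM in shNC, and reads of the pair may be shared. The core protein UQCRC1 was at −0.00 (edgeR adjusted p = 0.96) and the cytochrome c1 gene CYC1 at −0.17 (0.13).

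Complex IV, cytochrome c oxidase, had the lowest nuclear median, −0.30, and all 12 of its tested nuclear members had a fitted decrease. Of the 12, 4 were called (33.3%, beside 13.3% of all tested genes). COX7A2L, which joins complexes III and IV in supercomplexes, had 70.3, 73.3 and 80.2 CPM in sh1, against 77.2, 84.4 and 88.7 CPM in shNC. The groups overlapped, and its decrease was small and tight (log2 fold change −0.18, SE 0.050, edgeR adjusted p = 0.015). The call was lost without shNC replicate 5 or sh1 replicate 6. NDUFA4 had 31.8, 48.3 and 56.0 CPM in sh1, against 49.6, 61.7 and 82.9 CPM in shNC (log2 fold change −0.43, SE 0.13, edgeR adjusted p = 0.016). Here sh1 replicate 3 and shNC replicate 1 were the 2 ends of the range. COX6B1 was at −0.35 (edgeR adjusted p = 0.023) and COX5B at −0.33 (0.049), and the COX5B call held in 3 of 12 leave-one-out fits. The paralog NDUFA4L2, which is known to be induced by low oxygen, was at 2.19 CPM in both groups (−0.00, edgeR adjusted p = 0.99).

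Of the subunits with tissue forms, the ubiquitous forms passed the count filter and the restricted forms did not. COX8A had the highest FPKM of the nuclear subunits of the complex, at 88.7 ± 11.6 in sh1 and 98.9 ± 4.34 in shNC (SD, n = 6; log2 fold change −0.17, edgeR adjusted p = 0.11). That rank depends on the gene length used, 507 bases for COX8A and 1993 for COX7C. By CPM, COX7C (132 in sh1, 163 in shNC) stood above COX8A (44.8 and 50.6). COX4I1 was at −0.08 (edgeR adjusted p = 0.35), COX6A1 at −0.21 (0.064), COX7A2 at −0.26 (0.11) and COX7B at −0.31 (0.13). Of the forms known from lung, muscle or testis, COX4I2 had 2 counts in all 12 libraries together, COX6A2 5, COX7B2 1, COX8C 0, COX6B2 59 and COX7A1 92, and COX6B2 and COX7A1 had a count in each of the 12 libraries. The other 2 members that were not tested were NDUFA7, with 105 counts in total, and ATP5MGL, with 17.

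ATP synthase contributed 5 decreases among 17 tested nuclear members (29.4%, beside 13.3% of all tested genes), with a median of −0.20. ATP5MK, a small subunit of the membrane part (chromosome 10, 103389041 to 103396492), had 30.9, 47.1 and 64.9 CPM in sh1, against 57.6, 75.8 and 104 CPM in shNC. The sh1 replicate 4 library exceeded the lowest shNC library, also replicate 4. At 61.1% of shNC it showed the largest decrease among the members (log2 fold change −0.71, SE 0.14, edgeR adjusted p = 0.0014), and −0.51 (adjusted p = 0.0021) without sh1 replicate 3 and shNC replicate 1. It overlaps TAF5, a gene on the opposite strand that was itself lower (−0.38, edgeR adjusted p = 0.0033). Without strand marks, reads from bases shared by both genes cannot be told apart, and the extent of the overlap was not examined. ATP5PB, subunit b of the peripheral stalk, had 166, 183 and 190 CPM in sh1, against 190, 203 and 233 CPM in shNC, the ranges meeting at their edge (log2 fold change −0.20, SE 0.055, edgeR adjusted p = 0.014).

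The rotor ring of ATP synthase is made of subunit c, encoded by a family of 3 genes. ATP5MC3 was at −0.39 (edgeR adjusted p = 0.020), ATP5MC2 at −0.20 (0.027) and ATP5MC1 at −0.31 (0.058), and the ATP5MC3 call was lost without shNC replicate 5 while the ATP5MC2 call held in 5 of 12 leave-one-out fits. ATP5MF, a membrane subunit, was at −0.38 (edgeR adjusted p = 0.020). The catalytic subunit ATP5F1B was by far the most abundant nuclear member of any complex, at 343 ± 12.8 FPKM in sh1 and 365 ± 16.5 FPKM in shNC (SD, n = 6), and it was not called (−0.11, edgeR adjusted p = 0.11).

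Summed over all nuclear members, transcripts amounted to 5209 ± 402 CPM in sh1 and 5845 ± 486 CPM in shNC (SD, n = 6), with ranges of 4472 to 5618 CPM in sh1 and 5356 to 6711 CPM in shNC. The mitochondrial members summed to 28082 ± 3699 CPM in sh1 and 29474 ± 3467 CPM in shNC, and 3.68% ± 0.293 of all sh1 counts and 3.66% ± 0.400 of all shNC counts came from mitochondrial DNA (SD, n = 6). Both mitochondrial differences lay within the spread of the libraries. The ratio of the mean sums was 0.891 for nuclear and 0.953 for mitochondrial members.

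None of the 13 mitochondrial genes was called in edgeR's test. None had an unadjusted p under 0.05 either, and DESeq2 called none, although all 13 fits gave a negative value, between −0.00 for MT-ND1 and −0.51 for MT-ND3. The mitochondrial median was 0.02 without sh1 replicate 3 and 0.08 without that library and shNC replicate 1, so its sign turned on these libraries. MT-CO1, the catalytic core of cytochrome c oxidase, had 5714, 7151 and 7535 CPM in sh1, against 6450, 6907 and 7828 CPM in shNC (log2 fold change −0.02, SE 0.062, edgeR adjusted p = 0.87). MT-ND3, a small complex I subunit, had 142, 366 and 629 CPM in sh1, against 281, 507 and 962 CPM in shNC (log2 fold change −0.51, SE 0.29, edgeR adjusted p = 0.20). Without the filter on low counts, MT-ND3 was called lower (−0.51, adjusted p = 0.034).

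In complex I, MT-ND4L was at −0.26, MT-ND6, the member encoded on the light strand, at −0.17, MT-ND5 at −0.12, MT-ND4 at −0.05 and MT-ND2 at −0.01. The cytochrome b gene MT-CYB of complex III was at −0.06. In complex IV, MT-CO2 was at −0.11 and MT-CO3 at −0.08. In ATP synthase, MT-ATP8 was at −0.12 and MT-ATP6 at −0.05. Standard errors for these 10 genes ran up to 0.21 for MT-ND6, and the lowest edgeR adjusted p among them was 0.30, for MT-ND4L.

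On the FPKM scale, which corrects for length, the mitochondrial genes ranged from 539 (MT-ATP8) to 4495 (MT-CO1) in sh1 and from 578 (MT-ATP8) to 4616 (MT-ND4L) in shNC. The nuclear members had medians of 14.5 FPKM in sh1 and 17.2 FPKM in shNC. MT-ATP8 and MT-ATP6 lie on 1 transcript, yet MT-ATP6 measured 3469 ± 354 FPKM in sh1 and 3547 ± 119 FPKM in shNC (SD, n = 6), several times the level of MT-ATP8. Their reading frames overlap by 46 bases (mitochondrial DNA, 8527 to 8572, GRCh38), where the start codon of MT-ATP6, in capitals, lies inside MT-ATP8.
MT-ATP8 and MT-ATP6 overlap: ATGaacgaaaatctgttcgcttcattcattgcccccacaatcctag

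MT-ND4L and MT-ND4 overlap by 7 bases in the same way. Reads across such overlaps belong to both genes, and how they were counted is not given in the sources used here.

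The spread between libraries of the same group was largest in the shortest mitochondrial genes. The coefficient of variation of CPM was 28.5% to 42.4% in sh1 and 22.5% to 45.8% in shNC for the 4 genes under 600 bases (MT-ATP8, MT-ND4L, MT-ND3 and MT-ND6), against 8.40% to 19.0% in sh1 and 5.11% to 23.8% in shNC for the 9 longer ones. From the lowest to the highest of the 12 libraries, MT-ND3 varied 6.77-fold and MT-CO1 1.37-fold. Across the 13 genes, which share libraries and transcripts, the Spearman correlation of length with the coefficient of variation was −0.63 in sh1 and −0.40 in shNC, given as a description. Among the nuclear pseudogenes of these genes, MTND2P28, MTATP6P1 and MTCO1P12 had the same lowest and highest libraries, sh1 replicate 3 and shNC replicate 1, while MTND4P12 was lowest in shNC replicate 6 and highest in shNC replicate 1.

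**Figure D4:**
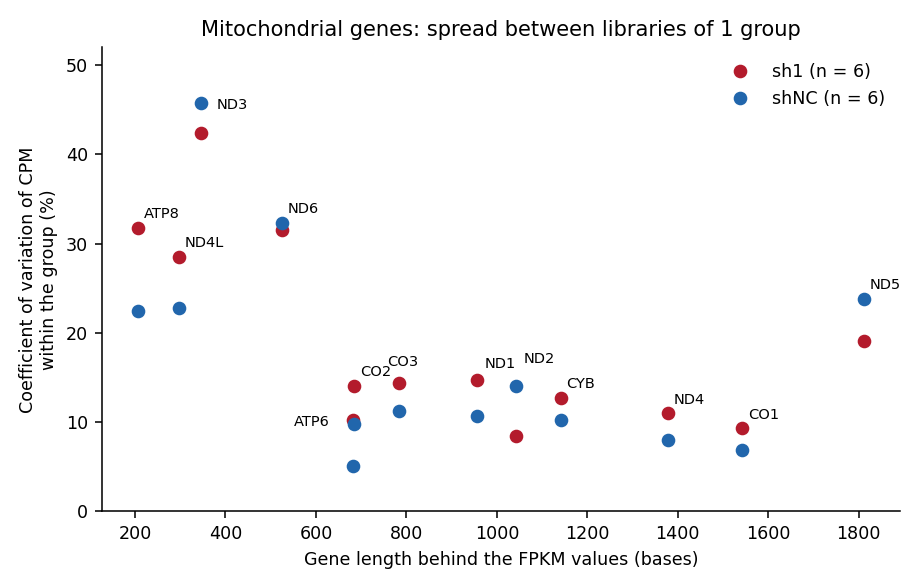
Coefficient of variation of CPM within a group (percent, y axis) against gene length (bases, x axis) for the 13 mitochondrial genes, sh1 in red and shNC in blue (n = 6 each). MT-ND3 stands highest at 42.4% in sh1 and 45.8% in shNC, and the longest gene, MT-ND5, also varies more than its neighbours.

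Nuclear members are short too. The median length of their canonical transcript was 763 bases, against 2908 bases over all tested genes, and 46 of the 79 were under 1000 bases. Genes of up to 600 bases sat low in sh1 replicate 3 (median deviation −0.10 over all tested genes of that length) and high in shNC replicate 1 (0.09). Among all tested genes of up to 600 bases, 8.15% were called lower with a median of −0.08, while 6 of the 20 nuclear members of that length were lower with a median of −0.25. From 2000 to 4000 bases, 5 of 9 members were lower with a median of −0.31, beside 13.4% and −0.00 for all genes. In the other classes 5 of 26 (600 to 1000 bases), 3 of 16 (1000 to 2000) and 1 of 8 (over 4000) were lower. Of all tested genes in these classes, 11.8%, 13.9% and 14.1% were called lower. Offsets for the deposited gene length and GC content, fitted in each library, gave 24 lower nuclear members (30.4%, beside 15.3% of all genes in that fit) and a median of −0.19. Offsets from the canonical transcript length, added after the data were seen, gave 22 (27.8%, beside 15.1%) and a median of −0.16.

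Genes that serve the respiratory chain were examined from lists of the same pathway. Mitochondrial DNA transcription and maintenance had 4 lower (28.6%, beside 13.3% of all genes) and 0 higher of 14 tested. TFAM, which packages mitochondrial DNA and starts its transcription, had 161, 172 and 189 CPM in sh1, against 203, 234 and 271 CPM in shNC. The groups stood apart (log2 fold change −0.45, SE 0.067, edgeR adjusted p = 0.00010). The helicase TWNK was at −0.33 (edgeR adjusted p = 0.0025), the single-strand binding protein SSBP1 at −0.26 (0.0060) and the terminator protein MTERF1 at −0.24 (0.043, a call kept in 2 of 12 leave-one-out fits). The mitochondrial RNA polymerase POLRMT was not called (−0.03, SE 0.094, edgeR adjusted p = 0.82).

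Of 12 tested transcriptional regulators of respiratory genes, 2 were lower (16.7%) and 1 higher (8.33%), shares close to the 13.3% and 12.8% of all genes. The coactivators PPARGC1A and PPRC1 were at −0.35 (edgeR adjusted p = 0.037, kept in 3 of 12 leave-one-out fits) and −0.26 (0.018, kept in 9 of 12). YY1 rose by 0.25 on the log2 scale (edgeR adjusted p = 0.0020), and its groups stood apart at 184 ± 9.14 CPM in sh1 and 155 ± 10.3 CPM in shNC (SD, n = 6). NRF1 was at −0.01 (edgeR adjusted p = 0.93) and GABPA at −0.09 (0.18).

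The list of electron carriers and coenzyme Q synthesis had 2 lower (15.4%, again near the 13.3% of all genes) and 0 higher of 13. CYCS, cytochrome c itself, had 234, 296 and 315 CPM in sh1, against 296, 358 and 434 CPM in shNC (log2 fold change −0.38, SE 0.089, edgeR adjusted p = 0.0047), and COQ2 was at −0.34 (0.0056). Of 60 tested assembly factors, 18 were lower (30%) and 3 higher (5%), with a median of −0.17, beside 13.3% lower and 12.8% higher of all genes. Complex I had 6 lower (31.6%) and 1 higher of 19, complex III 3 (50%) and 0 of 6, and complex IV 6 (25%) and 2 of 24. ATP synthase had 3 lower (42.9%) and 0 higher of 7, and complex II 0 and 0 of 4. Among those that fell, NUBPL, which delivers iron-sulfur clusters to complex I, was at −0.46 (edgeR adjusted p = 0.00052), BCS1L, which inserts the iron-sulfur protein of complex III, at −0.34 (0.00081), and ATPAF1 of ATP synthase at −0.32 (0.00080). TACO1, a translational activator of MT-CO1, was at −0.33 (0.0018), COX15, which makes heme A, at −0.24 (0.0032), and COX11, which helps to deliver copper, at −0.19 (0.0054). The 3 that rose were COX10, which acts before COX15 in making heme A, at 0.19 (edgeR adjusted p = 0.039), COX16 at 0.49 (0.0498) and TIMMDC1 at 0.12 (0.044), calls kept in 4, 2 and 6 of 12 leave-one-out fits.

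Protein import had 12 lower (52.2%) and 0 higher of 23 tested, with a median of −0.21, beside 13.3% lower and 12.8% higher of all genes. The receptor TOMM22 was at −0.53 (edgeR adjusted p = 6.7e-05), the channel proteins TIMM23 at −0.41 (3.9e-05) and TOMM40 at −0.35 (0.0019), and TIMM10 at −0.47 (0.0046). The mitochondrial ribosome, which translates the 13 mitochondrial genes, had 25 lower (32.1%) and 1 higher (1.28%) of 78, with a median of −0.14. MRPL51 was at −0.71 (edgeR adjusted p = 6.4e-05), MRPL15 at −0.47 (1.8e-05), MRPS16 at −0.44 (4.2e-06) and MRPL35 at −0.36 (0.00011), with no overlap between the groups for any of the 4. Of the 78, 14 had every sh1 library below every shNC library, beside 6.08% of all tested genes. Without sh1 replicate 3 and shNC replicate 1, import had 7 lower and 0 higher of 23, and the ribosome 17 and 2 of 78. Mitochondrial DNA maintenance had 5 and 0 of 14, and the assembly factors 12 and 3 of 60. In that fit 11.5% of all tested genes were lower and 12.5% higher.

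**Figure D5:**
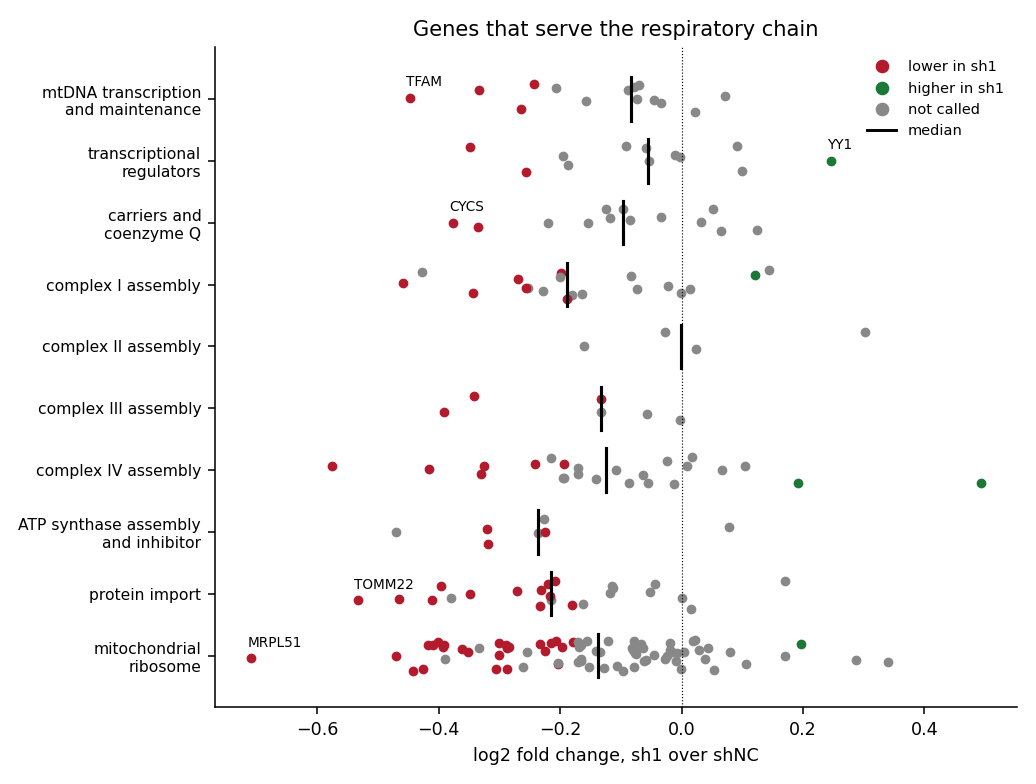
Log2 fold change (sh1 over shNC, x axis) of tested genes in 10 lists of genes that serve the respiratory chain (rows); red points were lower, green points higher, grey points not called, and black bars are medians. All medians lie below 0, that of complex II assembly at −0.00, and TFAM, CYCS, TOMM22, MRPL51 and YY1 are named.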

How the data were processed

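Adaptor-trimmed read pairs from polyadenylated RNA were aligned by the authors with HISAT2 to GRCh38, and the authors deposited gene counts from featureCounts and FPKM values calculated from them (versions not given in the sources used here). The kit does not mark strand. A deposited table of counts divided by size factors was not used. Of 58676 Ensembl identifiers, 58207 matched GENCODE 44, the source of symbols and coordinates. The 572 rows without an Ensembl identifier, whose origin is not given in the sources used here, held 0.468% to 1.23% of the counts in sh1 and 0.508% to 0.576% in shNC. They stayed in the main test and out of 1 alternative.

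The comparison of sh1 with shNC used the quasi-likelihood test of edgeR (version 4.0.16, R 4.3.3) with TMM scaling and its filterByExpr filter. Benjamini-Hochberg adjustment was made over 16489 genes. The test was also run on simulated counts with the same dispersion for every gene. Those counts held no shift shared by genes within a library, so that run cannot speak to such shifts. SE was obtained from the log2 fold change and its F value. The members and lists were chosen with earlier results of these data known. Genes named were RUNX2, all called nuclear members, the smallest p and most abundant member (by FPKM) of each complex, all mitochondrial members, tissue forms, up to 4 called genes of each list, and NRF1, GABPA, PPARGC1A, TFAM, POLRMT, CYCS and NDUFA4L2. Others (NDUFA8, NDUFAB1, NDUFS1, NDUFV1, ATP5MC1, SDHA, SDHC, UQCRC1, CYC1, COX7C, COX10, COX16, TIMMDC1, pseudogenes, markers and genes beside or overlapping members) were added after their values were seen. Alternatives were other scalings, filters, DESeq2 1.42.0, limma 3.58.1 on log2(FPKM + 1) and log2(FPKM + 0.1), length and GC offsets, a replicate block, thinning, gene subsets and leaving out libraries. Total counts ran from 11239638 to 19992974 per library, and 8 members did not pass the count filter. Why their counts were low was not tested. No library pair had identical counts.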

Additional observations from a re-analysis of the deposited data

Results flagged for a closer look

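A library was set apart where its gap to the nearest library of its group was a large share of the group's range (past Dixon's 95% limit for 6 libraries). Of 102 such checks 12 were past the limit, where chance gives about 5.1, and the checks share libraries. In sh1 replicate 3, 9 values were far below the other 5 sh1 libraries. MT-ND1 was at 947 CPM (others 1346 to 1484), MT-ND2 at 1989 CPM (2336 to 2526) and MT-CYB at 1311 CPM (1726 to 1910). The summed mitochondrial level was 21060 CPM (27430 to 31210), and the median mitochondrial deviation was −0.48 (−0.07 to 0.12). Among nuclear members, COX5B was at 26.7 CPM (43.6 to 51.0) and ATP5MF at 18.1 CPM (26.5 to 31.4). The library also had the fewest counts in its group, 11239638 (14689309 to 16346022), and a count in 27392 genes (28612 to 28873), and 1.23% of its counts fell on rows with no Ensembl identifier (at most 0.531% in the others). The part of these in the values of the members was not tested, apart from thinning all libraries to its total. With that, 22 members were lower (27.8% of the nuclear members tested, beside 12.8% of all genes).

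In shNC replicate 1, 3 values were far above the other 5 shNC libraries: MT-CO3 at 3128 CPM (2338 to 2568), MT-CYB at 2182 CPM (1664 to 1820) and NDUFS3 at 41.8 CPM (36.0 to 37.2).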

How the results depend on the processing

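Of the 20 calls, 5 (ATP5MK, NDUFA6, NDUFS3, SDHB and SDHD) were kept in all 12 leave-one-out fits and all 18 other settings, and 9 in all leave-one-out fits. Leaving out each library gave 11 to 31 lower members, all nuclear, and 0 to 1 higher. The lower ones were 13.9% to 39.2% of the nuclear members tested, beside 9.90% to 13.2% of all genes. The lower count was 34 with no filter on low counts (33 nuclear and 1 mitochondrial), 6 with limma on log2(FPKM + 1) and no filter, and 9 without sh1 replicate 3 and shNC replicate 1. The nuclear ones were 41.8%, 7.59% and 11.4% of those tested, beside 5.15%, 3.43% and 11.5% of all genes in the same fits. The lower count was 24 with DESeq2 (30.4%, beside 10.8% of all genes) and 15 with limma on the filtered genes (19.0%, beside 11.3%). Between 1 and 2 members, all nuclear, were higher in 3 settings: 1 with limma and no filter (COX6A2, with 5 counts in all libraries together), 2 with offsets from canonical transcript length, and 1 without both libraries (SDHA). The cause was not tested. No tested member that was called changed sign. Other scalings moved the median of all genes by less than 0.1. The replicate numbers did not pair the libraries, since same-numbered libraries correlated at −0.20 to 0.04. With the replicate block 18 members were lower (22.8% of the nuclear members tested, beside 10.3% of all genes). The 8 members that were not tested had 0 to 105 counts over all libraries. The SE was 0.29 for MT-ND3, against a median of 0.11 over the called members.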
